A study of Mus musculus with 2 samples.

Results

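The Calca-positive cells of tumor TKO2 are a minority of 59 cell barcodes, 1.55% of the 3811 barcodes of that tumor that held more than 200 detected genes (95% exact binomial interval 1.18 to 1.99%). A barcode was taken as a member when it carried at least 3 unique molecular identifiers (UMIs) of Calca, fewer than 10 UMIs of the club cell gene Scgb1a1, and fewer than 5 UMIs summed over the immune genes Lyz2, C1qa, C1qb, C1qc, Tyrobp and Fcer1g. The TKO2 table holds 3816 barcodes, and the series holds 8330. The comparison group, called Calca-zero below, was the 3524 TKO2 barcodes with 0 Calca UMIs under the same limits. Calca counts chose both groups, so every value below is a description of 1 library, and no test between the groups was made.

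The series holds 1 single-cell library from each of 2 mouse small cell lung tumors, TKO1 and TKO2, made on the Chromium system of 10x Genomics. The genotype of both mice is given as Rb-/-, Trp53-/- and Rbl2-/-, with the Rosa26 membrane-Tomato/membrane-GFP reporter allele. Per the paper, these genes were floxed and were deleted by Cre in lung cells only. The background was mixed from the strains 129/SVJ, 129/SvOla and C57BL/6. Tumors were induced with Adeno-CMV-Cre, a virus whose general promoter does not restrict recombination to one lung cell type. They were taken 7 months later, at an age of 8 to 9 months, and live cells were sorted from 1 dissected tumor per mouse. There was no replicate, so tumor, mouse and library cannot be told apart. The Rb1, Trp53 and Rbl2 counts do not check the genotype, because a tag near the 3′ end of a transcript need not lie in the deleted part.

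Pulmonary neuroendocrine cells, and small cell tumors with their features, store peptides and amines in dense-core granules and release them on stimulation. Calca encodes calcitonin and the calcitonin gene-related peptide, Chga encodes the granule protein chromogranin A, Resp18 encodes an endocrine granule protein, and Klk1 encodes tissue kallikrein, a secreted protease that releases kinins. Mycn, a member of the MYC family, is amplified in some small cell tumors together with its neighbour Ddx1, an RNA helicase.

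The DNA just upstream of Calca, Resp18 and Klk1 is shown because these genes are part of the label of the cells. Each line is the 150 bases before the gene's start, 5′ to 3′ on the coding strand, from RefSeq (GRCm38.p6). Capitals mark the letters CANNTG of the E-box, a site for basic helix-loop-helix factors, which read the same on both strands. The Calca stretch is chr7:114636358-114636507, the Resp18 stretch is chr1:75278416-75278565 (both minus strand) and the Klk1 stretch is chr7:44225210-44225359 (plus strand).
Calca: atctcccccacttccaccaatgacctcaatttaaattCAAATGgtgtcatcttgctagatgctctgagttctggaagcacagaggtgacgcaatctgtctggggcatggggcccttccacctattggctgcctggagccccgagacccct
Resp18: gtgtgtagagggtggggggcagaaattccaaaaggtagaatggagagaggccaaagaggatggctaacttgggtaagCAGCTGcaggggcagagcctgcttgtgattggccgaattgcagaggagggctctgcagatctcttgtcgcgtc
Klk1: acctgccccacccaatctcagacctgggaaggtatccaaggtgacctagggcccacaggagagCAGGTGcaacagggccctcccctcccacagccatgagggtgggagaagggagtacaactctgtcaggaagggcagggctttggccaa
Over the full 250 bases upstream, CANNTG occurred 1 time for Calca, 3 times for Resp18 and 2 times for Klk1, and it was found in 66.2% of all 32851 RefSeq promoters of that length. It was held by 6 of the 9 strongest genes (below) that had an entry. CAGCTG, a form contained in CANNTG, was upstream of Resp18 only among the 3, against 13.0% of all promoters. TGACG, the core of the cyclic AMP response element, searched on both strands with overlaps allowed, was upstream of Calca and of 17.8% of all promoters. A match describes these letters and is not a binding site.

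The markers of the label were chosen from these same cells, so their levels describe the label and do not check it. Calca was at 5494 CPM (UMIs of a gene per 1000000 UMIs of the group) in the 59 cells (95% exact Poisson interval 5026 to 5993), at 0 in Calca-zero cells by choice, and at 16967 CPM in TKO1 cells under the same limits. Per cell, Calca UMIs ran from 3 to 36 with a median of 7; 10 cells held exactly 3 and 18 held at least 10. Resp18 was at 1755 CPM (1495 to 2047) in Calca-positive cells, 7.74 CPM in Calca-zero cells and 1854 CPM in TKO1 cells. Chga was at 477 CPM (346 to 640), 92.8 CPM and 902 CPM in the same groups. Resp18 therefore stood at about the TKO1 level, while Chga lay between the groups. Klk1 was at 672 CPM (515 to 861) in Calca-positive cells, against 0.258 CPM in Calca-zero cells (2 UMIs) and 22.0 CPM in TKO1 cells. Here Klk1 exceeded the level of both other groups. In single cells, Resp18 had a UMI in 46 of the 59 cells, Chga in 26 and Klk1 in 16, and 6 cells had none of the 3 while 7 had all 3. At these depths a missing UMI does not show that a gene is silent.

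Depth and cell identity bear on these values. The 59 cells summed to 92290 UMIs, with a median of 1122 UMIs per cell (630 to 7478) and 751 detected genes, so 1 UMI is worth 10.8 CPM. Calca-zero cells summed to 7747592 UMIs (median 1897.5), and the 4143 TKO1 cells under the same limits to 4824775 (median 1024), of which 3542 held at least 3 Calca UMIs. All intervals cover counting error only. Markers of other cell types were counted in the 59 cells. Of 9 macrophage markers, 8 had no UMI and Lyz2 had 1; the limits of the rule capped 6 of these genes, but Ctss, Cd68 and Csf1r, which were not capped, were also at 0. All markers listed for type I alveolar cells, basal cells, tuft cells, neutrophils and red cells were at 0, as were the 3 of 4 B cell markers that the table holds. The fibroblast list had UMIs of Dcn alone, at 455 CPM in 22 cells, with Col1a1, Col1a2, Col3a1 and Pdgfra at 0. The ciliated cell list summed to 54.2 CPM against 21.4 CPM in Calca-zero cells, with 5 of 7 genes at 0 and Tppp3 highest. The type II alveolar list summed to 21.7 CPM against 0.387 CPM, as 2 Sftpd UMIs in 1 cell with 6 of 7 genes at 0, and the endothelial list to 10.8 CPM against 0.904 CPM, as 1 Pecam1 UMI. The part of such cells in the results was not tested. The T and natural killer cell list summed to 509 CPM against 33.7 CPM in Calca-zero cells, and its most abundant gene, Gzma, had all of its 34 UMIs in 1 cell. Nkg7, the other gene of that list at the minimum level, had 9 UMIs in 2 cells (log2 ratio 3.05, 1.88 to 4.04). Of the club cell list, Scgb1a1 alone had UMIs, 6 in 2 cells. Free RNA was gauged in 104 macrophage barcodes of TKO2 (median 1379.5 UMIs): Calca had no UMI in any of them, which allows a share of up to 2.88% (3 counts of 104). Both tables share 22 barcode sequences, of which 1 was among the 59 cells and 21 were among the Calca-zero cells.

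Across all genes, more were at least 4-fold higher than at least 4-fold lower in Calca-positive cells. Depth bears on that balance. In the 59 cells 1 UMI is worth 10.8 CPM, which limits the genes that can pass as lower. Calca-zero cells were summed over 7747592 UMIs, so genes that are higher face far less of a limit. With a mean level of at least 50 CPM over the groups, 3231 genes were compared. Of these, 173 were at least 4-fold higher in Calca-positive cells (5.35% of the genes compared) and 21 were at least 4-fold lower (0.65% of the genes compared). For all 173 and all 21, the 95% exact interval of the ratio excluded no change, which covers counting error but not the choice of cells. At these depths that outcome follows from the minimum level and the 4-fold limit, so nothing is read from it. The median log2 ratio of all genes compared was 0.06. With TMM scaling (trimmed mean of M-values, which rescales the total of each group) that median was -0.49, and the counts were 107 higher and 85 lower. The size of the excess of higher genes therefore depends on the scaling. Among the 173, 103 had a UMI in at least 10 of the 59 cells, 1 (Gzma) had UMIs in a single cell, and 131 were still 4-fold higher once the cell with most of their UMIs was left out.

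**Figure D1:**
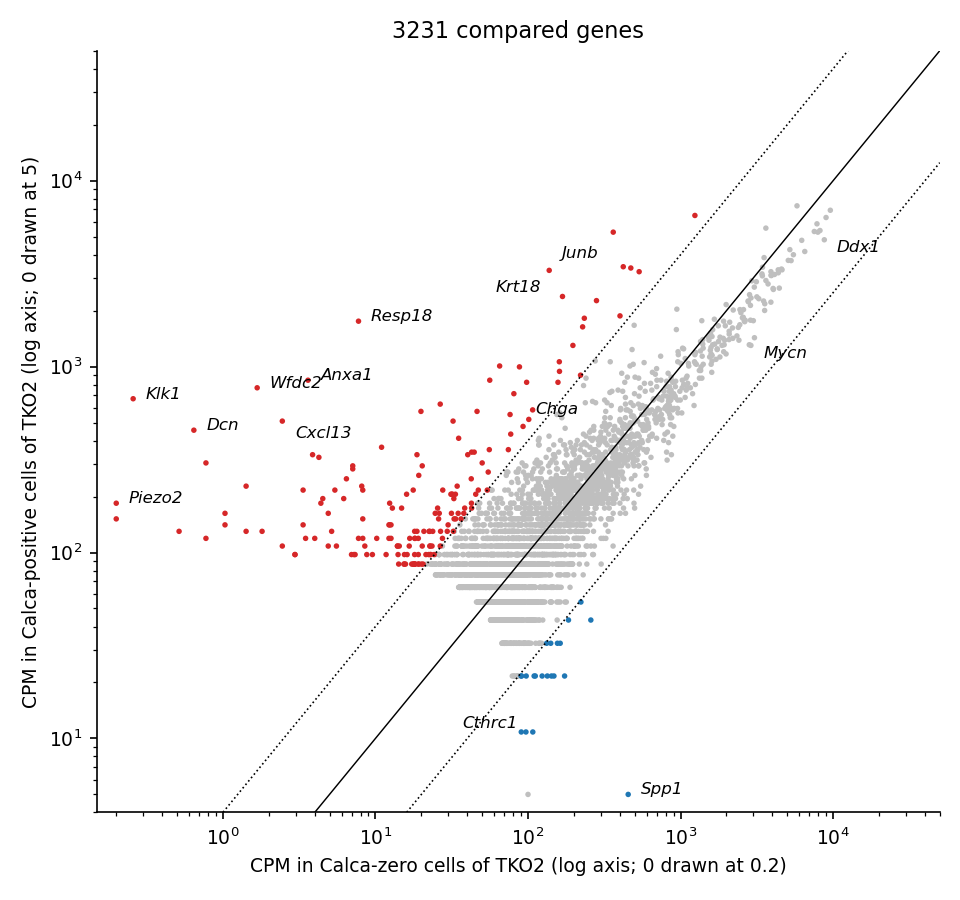
Level of 3231 genes in Calca-positive cells (vertical) against Calca-zero cells of TKO2 (horizontal), both in CPM on log axes, with 1 point per gene. Red points are the 173 genes at least 4-fold higher, blue points the 21 at least 4-fold lower, the solid line is equality and the dotted lines are 4-fold; Klk1, Dcn, Piezo2, Wfdc2, Anxa1 and Resp18 lie far from the line at levels below 8 CPM in Calca-zero cells.

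The 15 genes with the largest ratio, taken from those at 100 CPM or more in Calca-positive cells, were at 0 to 7.74 CPM in Calca-zero cells. After Klk1 (log2 ratio 11.35, interval 9.43 to 14.42) came Dcn, which encodes the matrix proteoglycan decorin, at 455 CPM against 0.645 CPM (log2 ratio 9.46, 8.13 to 11.16). Piezo2, a mechanically gated ion channel, was at 184 CPM and had no UMI in Calca-zero cells. With 3 UMIs set for that group, it was 476-fold higher (log2 ratio 8.89, interval from 8.44 up). These genes were spread over several cells: Dcn over 22, Piezo2 over 11. Wfdc2, a secreted protease inhibitor-like protein of airway epithelium, was at 769 CPM against 1.68 CPM and had UMIs in 34 of the 59 cells. Tspan8, a tetraspanin of epithelial membranes, was at 303 CPM against 0.774 CPM in 17 cells. Anxa1, the phospholipid-binding protein annexin A1, was at 845 CPM against 3.61 CPM in 27 cells. Anxa1 is also a macrophage gene, and 36.6% of macrophage barcodes held it at 1000 UMIs, against 0.235% of Calca-zero cells and 42.1% of Calca-positive cells.

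The chemokine Cxcl13 was at 509 CPM against 2.45 CPM, in 21 cells. The carboxylesterase Ces1d was at 228 CPM against 1.42 CPM. The signalling regulator Rgs4 was at 163 CPM against 1.03 CPM, and coagulation factor V, F5, at 119 CPM against 0.774 CPM. Dpep2, a membrane dipeptidase, had its 12 UMIs in 12 different cells. Some others rested on few cells. Dcpp1, a salivary-type secreted protein, had 92.9% of its 14 UMIs in 1 cell, and Clu, the secreted chaperone clusterin, had 69.2% of its 13 UMIs in 1 cell. The gene 8430408G22Rik had 50% of its 12 UMIs in 1 cell.

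The 15 genes were chosen for high levels in the 59 cells, so their levels in TKO1 are given as values only. Cxcl13 was at 1801 CPM and Ces1d at 363 CPM in TKO1 cells. Dcn was at 22.6 CPM, Tspan8 at 20.7 CPM, Anxa1 at 106 CPM and Wfdc2 at 510 CPM in TKO1 cells.

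At the other end, Spp1, which encodes the secreted matrix protein osteopontin, had no UMI in the 59 cells against 454 CPM in Calca-zero cells. With 3 UMIs set for the 59 cells, it was 14.0-fold lower (log2 ratio -3.80, interval from -3.50 down). Spp1 was at 4.77 CPM in TKO1 cells, so both groups with Calca were low. The next genes rested on very few UMIs, and their calls depended on the choice of cells: with at least 2 Calca UMIs as the limit, Spp1 was the 1 gene of the 15 still 4-fold lower, and after thinning to 1000 UMIs 9 of the 15 were. Cthrc1, a secreted collagen-related protein, had 1 UMI against 108 CPM (log2 ratio -3.31, -8.62 to -0.83), but its log2 ratio was -0.34 after thinning and -1.68 with at least 2 Calca UMIs. Vtn, which encodes vitronectin, had 2 UMIs against 174 CPM (log2 ratio -3.00, -6.05 to -1.15), and -0.88 with at least 2 Calca UMIs. Cyclin B1, Ccnb1, had 4 UMIs, at 43.3 CPM against 258 CPM (log2 ratio -2.57, -4.45 to -1.22), and its log2 ratio was -1.59 after thinning and -0.51 with at least 2 Calca UMIs. The homeobox genes Hoxb8 and Hoxb7 had 2 and 3 UMIs, with log2 ratios of -2.63 (-5.67 to -0.77) and -2.32 (-4.60 to -0.77). Those ratios were -0.69 and -1.71 after thinning, and -0.86 and -0.69 with at least 2 Calca UMIs. The other genes of the 15 were Mrpl43, Mrps7 and Mrpl50 of the mitochondrial ribosome, the transcription cofactor Lmo4, Yeats4, Sephs2, the retromer subunit Vps35, the tubulin Tubb2b and the acetyltransferase Naa10, each with 2 to 5 UMIs.

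Genes of peptide storage were described as a list. Of 7 granin genes compared, 3 were at least 4-fold higher (Resp18, Chga and Scg2) and none lower (5.35% and 0.65% of all genes compared were), with a median log2 ratio of 1.80 against 0.06 over all genes compared. Resp18 and Chga belong to the label, which was chosen from these cells, so nothing is read from their count, and of the other 5 Scg2 alone passed. Of those 5, 2 passed after thinning to 1000 UMIs (272 of all 3287 genes did) and 3 with means of per-cell CPM (274 of 3270). Secretogranin II, Scg2, was at 228 CPM against 34.3 CPM. Those that did not pass 4-fold included Scg5, a chaperone of prohormone convertase 2, at 563 CPM against 162 CPM, and Chgb at 163 CPM against 47.9 CPM. Pcsk1n, an inhibitor of prohormone convertase 1, was at 163 CPM against 186 CPM, the only one of the 7 with a ratio below 1.

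Among enzymes that cut and finish peptides, Pcsk1, the prohormone convertase 1, was at 228 CPM against 8.13 CPM (log2 ratio 4.81, 4.02 to 5.54), in 19 cells. Carboxypeptidase E, Cpe, was at 639 CPM against 278 CPM and stayed below 4-fold. Neuropeptide genes were sparse. Of the 17, 11 had no UMI in the 59 cells, among them the paralog Calcb. The 1 gene that could be compared, Grp, had 3 UMIs (log2 ratio -1.56, -3.84 to -0.01). It did not pass 4-fold, but did so as lower with TMM scaling (-2.08) and with means of per-cell CPM (-2.37). Ddc, which makes serotonin and dopamine from their precursors, was at 271 CPM against 93.4 CPM. None of the calcitonin receptor genes reached the minimum level, and Ramp1 alone had UMIs.

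Synaptic genes gave no call either way in the Calca-positive cells together. Of 10 synaptic genes, 0 passed 4-fold in either direction. Of all genes compared, 5.35% were higher and 0.65% lower, so nothing is read from that count in so short a list. The median log2 ratio of the list was -0.10, and it became 0.17 after thinning to 1000 UMIs and -0.62 with TMM scaling. In the cells without a Mycn UMI (below), 1 of the 10 was 4-fold higher and 2 were 4-fold lower. Of the 3386 genes compared in those cells, 475 were higher and 118 lower. Of the transcription factors, Hes6, a Notch-antagonising factor, was at 563 CPM against 1019 CPM. Nkx2-1, the lung lineage factor, was at 173 CPM against 129 CPM. Both factors were therefore detected in both groups of TKO2.

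**Figure D2:**
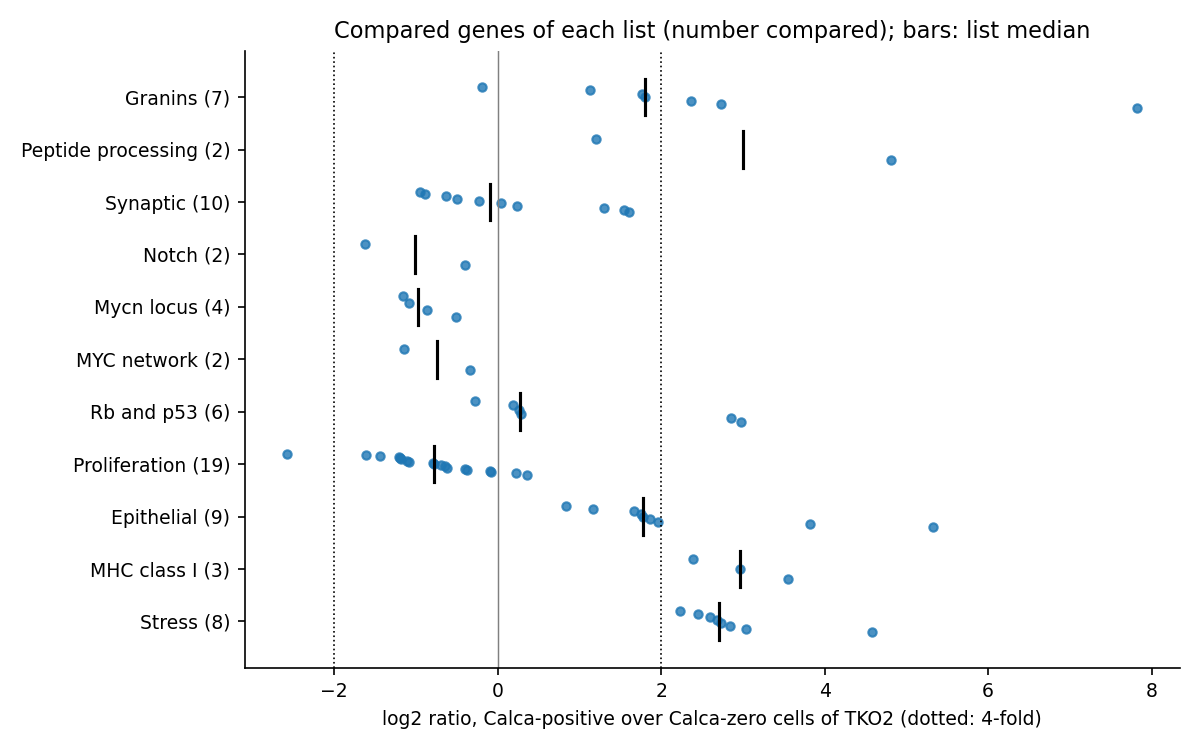
Log2 ratio of CPM, Calca-positive over Calca-zero cells of TKO2 (horizontal), for the compared genes of each list (rows, with the number compared). Points are genes, black bars are list medians and dotted lines mark 4-fold; all 8 stress genes and all 3 MHC class I genes lie to the right of the upper line, and none of the 19 proliferation genes does.

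Immediate early genes, which respond to stimulation and to handling stress, were higher. Of the 10 genes of the stress list, 8 could be compared, all of them immediate early genes. The other 2, the heat shock genes Hspa1a and Hspa1b, had no UMI in the 59 cells. All 8 were at least 4-fold higher, against 5.35% of all genes compared, with a median log2 ratio of 2.71. Junb was at 3294 CPM against 138 CPM (log2 ratio 4.58, 4.39 to 4.77), in 45 cells. Fos was at 3446 CPM against 421 CPM, and Jun at 1875 CPM against 401 CPM. TKO1 cells had similar levels, with Junb at 3253 CPM, Fos at 3637 CPM and Jun at 2596 CPM. With TMM scaling 6 of the 8 passed (107 of all 3274 genes did). Dissociation stress was not measured apart from these genes, and its part was not tested.

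Epithelial genes were next. Of 9 compared, Krt18 and Cldn4 passed 4-fold (5.35% of all genes did), and the list median log2 ratio was 1.78. After thinning to 1000 UMIs 4 of the 9 passed (272 of all 3287 genes did), and with means of per-cell CPM 3 (274 of 3270). In the cells without a Mycn UMI (below) 7 passed, where 475 of the 3386 genes compared in those cells did. Krt18, a keratin of simple epithelium, was at 2384 CPM against 168 CPM (log2 ratio 3.82, 3.61 to 4.03), and its partner Krt8 was at 1073 CPM against 276 CPM. The claudin Cldn4 was at 217 CPM against 5.42 CPM, with 40% of its UMIs in 1 cell. All 3 MHC class I genes compared were at least 4-fold higher (5.35% of all genes were), or 2 of the 3 with TMM scaling (107 of all 3274 genes). H2-D1 was at 1820 CPM against 234 CPM, H2-K1 at 412 CPM against 35.1 CPM and B2m, the shared light chain, at 823 CPM against 157 CPM. TKO1 cells had H2-D1 at 2300 CPM, H2-K1 at 423 CPM and B2m at 673 CPM.

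Of 6 cell cycle control genes of the Rb and p53 pathways, the inhibitors Cdkn1a and Cdkn2c passed 4-fold, against 5.35% of all genes. Cdkn2c was at 553 CPM against 76.3 CPM, and Cdkn1a at 217 CPM against 27.6 CPM. Of 19 proliferation genes, none was 4-fold higher (5.35% of all genes compared were), with a median log2 ratio of -0.78. Ccnb1 was 4-fold lower, but not after thinning (log2 ratio -1.59) or with at least 2 Calca UMIs (-0.51). Ube2c, a mitotic ubiquitin-conjugating enzyme, was at 260 CPM against 597 CPM, and Hmgb2 at 1029 CPM against 1587 CPM. Of 8 kallikrein genes listed, Klk1 alone had UMIs in the 59 cells. The Y-linked Eif2s3y was at 54.2 CPM in Calca-positive cells, 43.2 CPM in Calca-zero cells and 102 CPM in TKO1 cells, and Xist had no UMI in the 59 cells.

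The 59 cells were not alike in the genes around Mycn. Fam49a, Mycn, Ddx1 and Nbas are neighbours on chromosome 12 (GRCm38), with Mycn at chr12:12936093-12941914 and Ddx1 at chr12:13216973-13249213. These 4 genes were high in Calca-zero cells and low in TKO1: Mycn was at 2892 CPM against 12.9 CPM, and Ddx1 at 8755 CPM against 133 CPM. In the 59 cells together, Mycn was at 1300 CPM (1078 to 1555) and Ddx1 at 4811 CPM (4374 to 5280). None of the 4 passed 4-fold (5.35% of all genes compared were higher and 0.65% lower), and nothing is read from that count. Their median log2 ratio was -0.97. The mean hides a wide spread. Mycn UMIs per cell ran from 0 to 26 with a median of 0, and Ddx1 UMIs from 0 to 92 with a median of 1. A Mycn UMI was present in 19 cells and absent from 40.

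**Figure D3:**
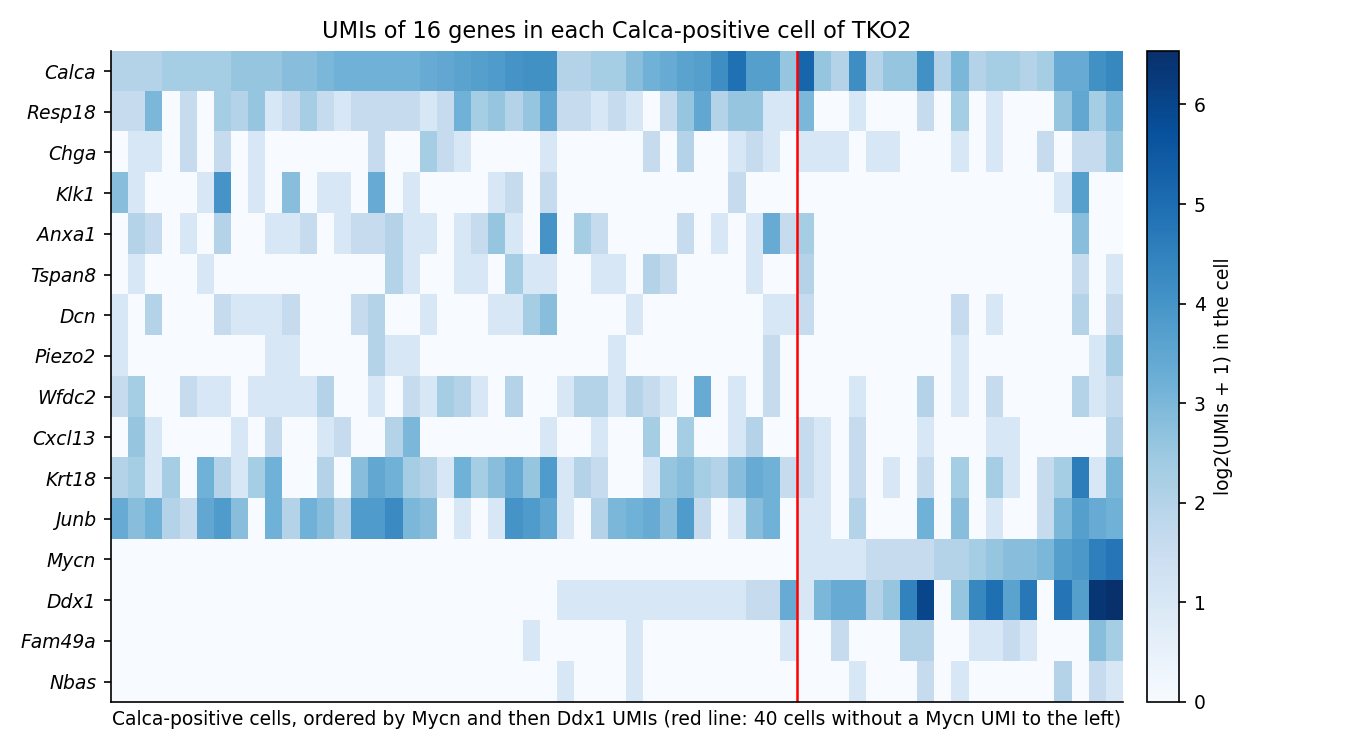
UMIs of 16 genes (rows) in each of the 59 Calca-positive cells (columns), as log2(UMIs + 1), ordered by Mycn and then Ddx1 UMIs. To the left of the red line are the 40 cells with 0 Mycn UMIs, where 39 have at most 2 Ddx1 UMIs and where most of the UMIs of Klk1, Anxa1 and Junb lie.

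Because deeper cells show more genes, cells were thinned to 1000 UMIs, which left out 21 of the 59. Of the remaining 38, 36.8% held a Mycn UMI (14 cells, 95% exact binomial interval 21.8 to 54.0%), against 78.2% of 2973 Calca-zero cells (76.7 to 79.7%). The share was 1.48% in TKO1 cells, and 14.6% (7.80 to 24.2%) in macrophage barcodes of TKO2. Macrophages should lack Mycn, so their share was taken as a background level. The parts of free RNA and of doublets in it were not tested. Without thinning the shares were 32.2%, 84.6%, 1.40% and 19.2%. Thinned to 500 UMIs, which kept all 59 cells, the share was 22.0%, against 59.1% of Calca-zero cells and 7.69% of macrophage barcodes. At 1000 UMIs the interval of the 38 cells lay below that of Calca-zero cells and overlapped that of macrophage barcodes. Ddx1 gave the same order at 1000 UMIs, at 55.3% of Calca-positive cells (38.3 to 71.4%), 89.8% of Calca-zero cells (88.7 to 90.9%) and 22.0% of macrophage barcodes (13.6 to 32.5%), with no overlap of the intervals.

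The split by Mycn was made after its values were seen, so what follows describes it and does not test it. The 40 cells without a Mycn UMI had a median of 1010 UMIs (630 to 2291), and the 19 with one had a median of 2045 (888 to 7478), among them all 3 cells above 5000 UMIs. Depth therefore moved with the split. Of the 40 cells, 39 had at most 2 Ddx1 UMIs and 1 had 9. Ddx1 was at 570 CPM in the 40 cells and 8367 CPM in the 19 (log2 ratio -3.88, -4.53 to -3.28), with 8755 CPM in Calca-zero cells. Of the 420 Ddx1 UMIs of the 19 cells, 236 were in 3 cells, and the level without these 3 was 5091 CPM. Fam49a was at 71.3 CPM against 458 CPM, and Nbas at 47.5 CPM against 199 CPM. A further 542 Calca-zero cells also had no Mycn UMI, at a similar depth (median 1189 UMIs). Those cells had Ddx1 at 5758 CPM, Fam49a at 543 CPM and Nbas at 172 CPM.

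Marker levels also differed across this split. Of the 173 genes, 162 were higher in the 40 cells than in the 19, against 48.5% of all genes compared. The 173 were chosen on these same cells, so that count supports nothing by itself. Resp18 was at 2875 CPM in the 40 cells and 817 CPM in the 19, with UMIs in 37 of 40 and 9 of 19 cells. Klk1 was at 1164 CPM and 259 CPM, in 14 and 2 cells. Anxa1 was at 1616 CPM and 199 CPM, in 25 and 2 cells. Junb was at 5844 CPM and 1155 CPM, and Krt18 at 3944 CPM and 1076 CPM. The 542 Calca-zero cells without a Mycn UMI did not have these levels, with Resp18 at 33.7 CPM, Klk1 at 1.35 CPM, Anxa1 at 20.2 CPM and Junb at 318 CPM. Chga was more even, at 618 CPM in the 40 cells and 359 CPM in the 19. Summed, the 19 cells also lay above Calca-zero cells, with log2 ratios of 6.72 (6.11 to 7.32) for Resp18 and 3.07 (2.66 to 3.45) for Junb. Resp18 had no UMI in 10 of the 19 cells, and Junb none in 8. The 3 cells above 5000 UMIs held 10, 4 and 7 UMIs of Resp18 and 12, 9 and 8 of Junb.

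Some proliferation genes had lower levels in the 40 cells. Against Calca-zero cells, 7 of the 19 were at least 4-fold lower in the 40 cells (3.65% of all 3231 genes compared were), with a median log2 ratio of -0.97 against -0.78 for all 59 cells. Ube2c and Rrm2, the small subunit of ribonucleotide reductase, had no UMI in the 40 cells and were at 478 CPM and 279 CPM in the 19 cells, near the 597 CPM and 349 CPM of Calca-zero cells. Hmgb2 was at 380 CPM and 1574 CPM. Pcna, a replication clamp, did not follow, at 499 CPM and 319 CPM. Ribosomal protein genes made up 11.1% of UMIs in the 40 cells, 21.5% in the 19 cells, 23.2% in Calca-zero cells and 10.9% in TKO1 cells. The cell with Gzma UMIs was among the 40 cells, and both cells with Scgb1a1 UMIs were too.

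The same split appeared among nearest neighbours, computed over the 1000 most variable genes without those of the rule. Among its 10 nearest TKO2 cells, a Calca-positive cell had a median of 8 other Calca-positive cells. The median was 9 for the 40 cells and 0 for the 19. At least 5 of the 10 neighbours were Calca-positive for 34 of the 40 cells and for 2 of the 19. A Calca-zero cell had a median of 0. Cells that share high genes are near each other by construction, so this gives the number of cells in each position and no test.

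Levels were also read along the number of Calca UMIs, with the cells just inside and just outside the rule. There were 76 TKO2 cells with 1 Calca UMI, 26 with 2, 19 with 3 to 4, 22 with 5 to 9 and 18 with 10 or more, under the same limits. Resp18 was at 7.74, 33.1, 407, 1101, 1430 and 2514 CPM from 0 to 10 or more Calca UMIs. Mycn was at 2892, 2556, 1416, 1497, 972 and 1503 CPM over the same bins. From 2 UMIs on, the intervals of neighbouring bins overlapped for Mycn, and those of the bins with 3 to 4 and 5 to 9 UMIs overlapped for Resp18. Klk1 was lower with 10 or more Calca UMIs, at 202 CPM, than with 3 to 4, at 1012 CPM, but 15 of the 23 Klk1 UMIs of the latter bin were in 1 cell, without which it was at 369 CPM, within the interval of the bin with 10 or more (81.3 to 417 CPM). The cells with 2 UMIs, outside the rule, had Klk1 at 637 CPM (36 UMIs in 3 cells).

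**Figure D4:**
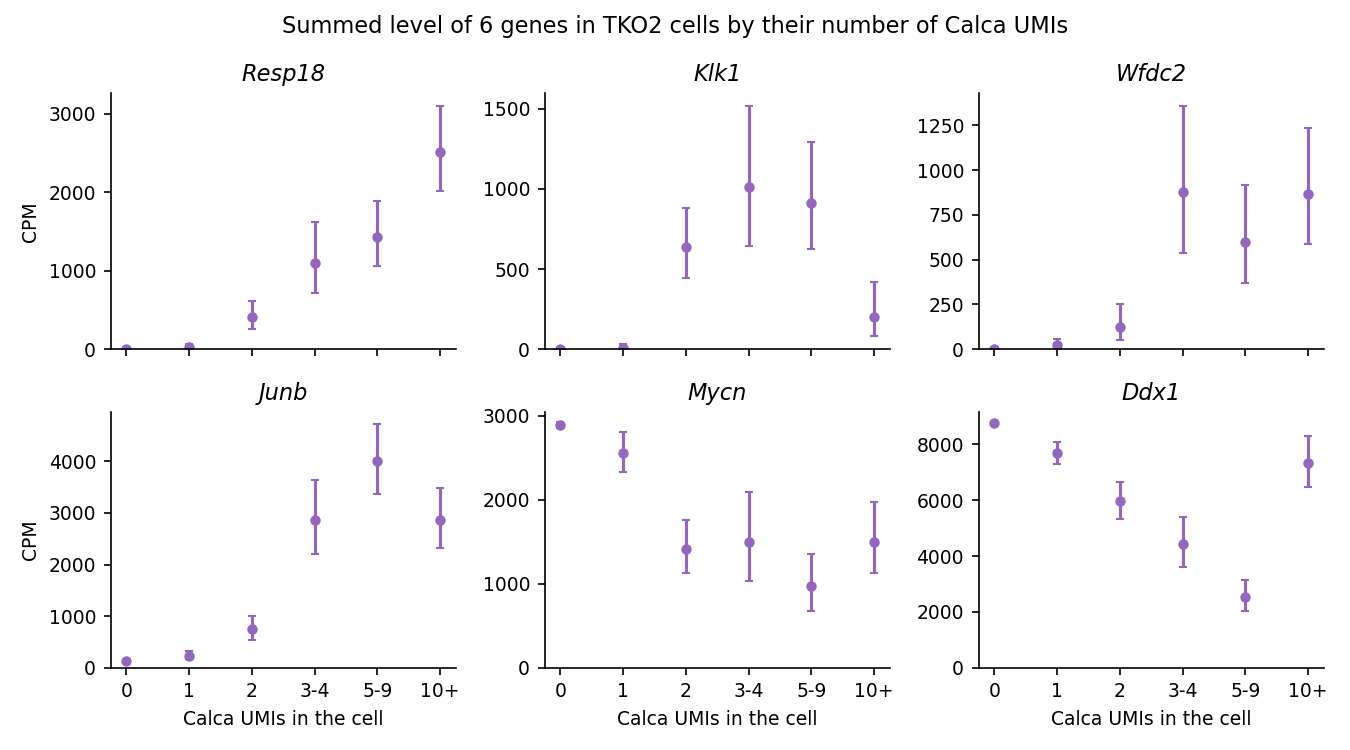
Summed level in CPM (vertical) of 6 genes in TKO2 cells grouped by their number of Calca UMIs (horizontal), with 95% exact Poisson intervals as bars. Resp18 is at 7.74 CPM with 0 Calca UMIs and 2514 CPM with 10 or more, and Mycn is at 2892 CPM and 1503 CPM in the same bins.

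The 59 cells were then placed between the tumors with the 30 genes that differed most between them. These were the 15 genes with the largest ratio in each direction between TKO1 cells and Calca-zero cells. Those groups also differ in Calca: 3542 of the 4143 TKO1 cells held at least 3 Calca UMIs, and Calca-zero cells held none by choice. Genes that go with Calca can therefore be among the 30, and Resp18, of the label, is. The parts of tumor and of Calca in a side cannot be told apart. A level was called nearer to TKO1 when it lay on the TKO1 side of the geometric mean of both levels. The 59 cells together were nearer to TKO1 for 14 of the 30 genes: 12 of the 15 that were higher in TKO1, and 2 of the 15 that were higher in Calca-zero cells. For S100a14 and Fhad1 that side rests on 1 UMI each, at 10.8 CPM, just above the geometric means of 10.7 and 9.86 CPM. Cbln4 and Usp18 had no UMI, and their side could not be told at this depth, since the level of 3 UMIs (32.5 CPM) lay above the geometric mean. The remaining 14 genes were nearer to Calca-zero cells. Among them, Cthrc1 and Ass1 also rested on 1 UMI each, at 10.8 CPM against geometric means of 9.44 and 27.0 CPM. In the 40 cells without a Mycn UMI the limit was 71.3 CPM, and 10 of the 30 genes had no UMI and could not be placed. Of the other 20, 16 were nearer to TKO1 (11 and 5) and 4 to Calca-zero cells. The 5 were Mycn and its neighbour Ddx1, whose side the split bears on, and Igfbpl1, Vtn and Mthfd2l, on 1 UMI each. In the 19 cells with a Mycn UMI the limit was 59.8 CPM, and 8 genes had no UMI and could not be placed. Of the rest, 7 were nearer to TKO1 (6 and 1) and 15 to Calca-zero cells. Vtn, which is the 1, and Cthrc1, Ass1 and Ly6h, nearer to Calca-zero cells, rested on 1 UMI each (19.9 CPM), below the limit. In the 40 cells the side rested on 1 UMI each (23.8 CPM) for S100a14, Fhad1, Igfbpl1, Vtn and Mthfd2l. That is below the limit of 71.3 CPM set for genes at 0, so those sides are uncertain. The choice by Mycn fixes the side of Mycn itself and bears on that of its neighbours.

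**Figure D5:**
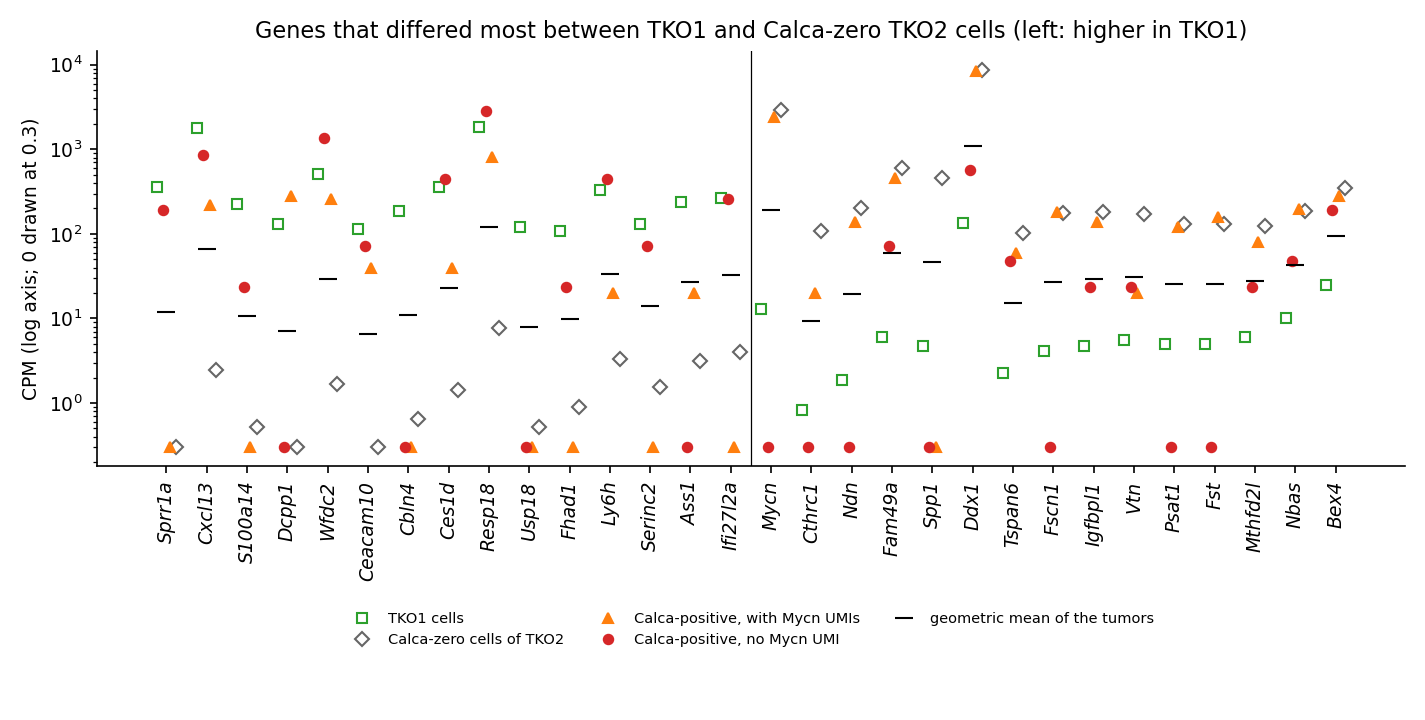
Level in CPM (vertical, log axis) of the 30 genes that differed most between TKO1 cells and Calca-zero TKO2 cells, 15 in each direction. Circles are the 40 Calca-positive cells without a Mycn UMI and triangles the 19 with one. Open squares are TKO1, open diamonds Calca-zero cells and short bars the geometric mean. Levels of 0 are drawn at the bottom. Leaving out the genes at 0 that could not be placed, circles lie on the TKO1 side for 16 of 20 genes and triangles for 7 of 22. Of those circles, S100a14, Fhad1, Igfbpl1, Vtn and Mthfd2l (23.8 CPM) lie below the limit of 71.3 CPM set for genes at 0. Of those triangles, Vtn (19.9 CPM), Ces1d and Ceacam10 (39.8 CPM) lie below their limit of 59.8 CPM. Sides below a limit are uncertain, and the split itself fixes the side of Mycn. The TKO1 and Calca-zero cells differ in Calca as well as in tumor.

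Several genes stood apart from the rest or could not be placed. Cbln4, a secreted synapse organiser, was at 188 CPM in TKO1 cells and had no UMI in the 59 cells. Usp18, which limits interferon signalling, was at 120 CPM in TKO1 and also had none. Ass1, of the urea cycle, was at 236 CPM in TKO1 and had 1 UMI in the 59 cells, in a cell with Mycn. One UMI was worth 23.8 CPM in the 40 cells. On the TKO2 side, Bex4 was at 190 CPM in the 40 cells, 351 CPM in Calca-zero cells and 25.1 CPM in TKO1. Ndn, Fscn1, Psat1 and Fst had no UMI in the 40 cells and were at 200, 174, 132 and 129 CPM in Calca-zero cells, and are among the genes that could not be placed.

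The strongest genes of the 59 cells were also found in some TKO1 cells. In TKO1, 91 of the 4143 cells held at least 3 UMIs summed over Anxa1, Tspan8, Dcn and Klk1, a choice made after these values were seen, so those 4 genes are high there by choice. The other genes varied in how near they came to the 40 cells. Rgs4 was at 165 CPM in the 91 cells, 261 CPM in the 40 and 27.1 CPM in all TKO1 cells. Piezo2 was at 174, 261 and 95.1 CPM, and Clu at 252, 309 and 29.2 CPM, in the same groups. Wfdc2 was at 670 CPM in the 91 cells against 1378 CPM in the 40, F5 at 104 CPM against 214 CPM and Cxcl13 at 1905 CPM against 855 CPM. Dcpp1 was at 165 CPM in the 91 cells and had no UMI in the 40. Cbln4 was at 17.4 CPM in the 91 cells, below the value of 1 UMI in the 40 cells.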

How the data were processed

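For each tumor the authors deposited a table of raw UMI counts, with genes in rows and barcodes in columns. Per the labels, Cell Ranger, Seurat and the mm10 build were used; versions and the annotation are not given in the sources used here. Each table lists 27998 genes, of which 27645 identifiers matched GENCODE M21 (GRCm38), which gave positions. TKO1 holds 4514 barcodes and 5285038 UMIs, and TKO2 holds 3816 and 8291430.

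UMIs were summed over the cells of a group and divided by the group's total (CPM). CPM intervals are exact Poisson, ratio intervals exact conditional binomial and shares exact Clopper-Pearson, all at 95% and for counting error only. Genes with a mean of at least 50 CPM over both groups were compared, without the genes of the rule, and a ratio of at least 4 was called. A share of 0 is given with a limit of 3 counts. In ratios a group with 0 UMIs was set to 3 UMIs, and the interval of such a ratio is open on that side. Between the tumors a group with 0 UMIs was placed only where the level of 3 UMIs was below the geometric mean. With 1 library per tumor there was no test. Named genes were the 15 with the largest ratio each way at 100 CPM or more, the 15 tumor-difference genes each way and the listed genes, of which 1, with the list of transcription factors, is not reported here. Members and lists were chosen with earlier results of these data known. The study kept cells with more than 500 detected genes; 3568 TKO2 barcodes and 50 of the 59 cells pass that limit. Doublets were not called or removed, and no mitochondrial limit was set (0.988% of UMIs in the 59 cells). Neighbours used 1000 variable genes, 10 principal components and Euclidean distance on log-scaled counts. Python 3.11.15, numpy 2.4.6, scipy 1.17.1 and, for TMM factors, edgeR 4.0.16 in R 4.3.3 were used. The interval code was tested on simulated data.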

Additional observations from a re-analysis of the deposited data

Results flagged for a closer look

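In TKO2, 4 barcodes held at least 3 Calca UMIs but failed the limits, each with at least 10 Scgb1a1 UMIs, and so entered no comparison. They held 10, 15, 12 and 4 Calca UMIs beside 964, 175, 674 and 49 Scgb1a1 UMIs. They stood out because Calca had 0 UMIs in the 104 macrophage barcodes of the same tumor. None of the 4 had a Mycn UMI, and Ddx1 had 3 UMIs in 1 of them. In all, 6 of the 22 TKO2 barcodes with at least 10 Scgb1a1 UMIs held Calca. Doublets and cells with both transcripts cannot be told apart here.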

How the results depend on the processing

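The counts of genes 4-fold higher (173) and lower (21) depended on several choices. They were 99 and 6 with a minimum of 2 Calca UMIs, 107 and 85 with TMM factors, 272 and 52 after thinning to 1000 UMIs, 274 and 50 as means of per-cell CPM, 467 and 88 at a mean of 20 CPM, and 77 and 4 at 100 CPM. They were 196 and 39 with totals without mitochondrial, ribosomal and rule genes, 204 and 31 with at least 5 Calca UMIs, and 255 and 59 without the cells above the 90th percentile of UMIs in each group. TMM moved the median log2 ratio of all compared genes from 0.06 to -0.49, which accounts for its shift from higher to lower calls, and 107 of the 173 were called under it. In an alternative added after seeing the data, the 40 cells without a Mycn UMI gave 475 and 118, with 167 of the 173 called. They also gave 22 tumor-difference genes on the TKO1 side in place of 14. Of the 22, 6 had no UMI and could not be placed at this depth. The side of S100a14, Fhad1, Igfbpl1, Vtn and Mthfd2l rested on 1 UMI each. The Calca-positive share of TKO2 barcodes (1.55%) was 2.23% with at least 2 Calca UMIs and 1.05% with at least 5. The share holding a Mycn UMI stayed within its interval under 7 alternatives and 2 more added after seeing the data (at least 2 Calca UMIs, more than 500 genes), from 22.0% to 39.3%. Of 1623 recomputed log2 ratios of 125 named genes, 1476 stayed within the interval of the reported value, 147 left it and 0 changed the sign of a called value. No paired analysis was possible because there is 1 library per tumor. Depth limits the genes lower in the 59 cells, since 1 UMI is worth 10.8 CPM.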
